A study of Homo sapiens with 15 samples.

Results

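The megakaryocyte and platelet genes ITGA2B, ITGB3, GP9, GP1BA, PF4, PPBP, FLI1, THBS1 and VWF were followed by symbol through the whole count table, so that 9 of its 60649 genes are described. The libraries came from K-562 cells, an established human cell line from a chronic myeloid leukaemia. All groups therefore share the BCR-ABL fusion, and the cells were left untreated or exposed for 24 h to martinostat at 1, 0.5, 0.25 or 0.15 µM. Martinostat inhibits histone deacetylases, the enzymes that take acetyl groups off histones and other proteins. Each of the 5 groups held 3 libraries of poly(A) RNA, labelled as biological replicates, and no vehicle was named for the untreated cells. The question put to these genes is how a line with erythroid and megakaryocytic features expresses platelet genes as the dose of the inhibitor rises.

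Megakaryocytes are the bone marrow cells that shed platelets, and the genes followed here encode what a platelet needs to stick, to signal and to secrete. ITGA2B and ITGB3 encode the integrin subunits αIIb and β3, which pair on the platelet surface as the fibrinogen receptor. GP1BA and GP9 encode subunits of the GPIb-IX-V complex, which holds platelets to von Willebrand factor, the product of VWF. THBS1 encodes thrombospondin 1, and PF4 and PPBP encode CXC chemokines, all stored in platelet alpha granules. FLI1 is a transcription factor of the ETS family that works with GATA1 at the promoters of megakaryocyte genes. K-562 cells are a common model of this lineage because some inducers push them towards megakaryocytes and others towards red cells. VWF and THBS1 are not specific to the lineage, since endothelial cells make both and fibroblasts make thrombospondin 1.

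Erythroid markers of the labelled line were looked for in the untreated libraries, where HBE1 was lowest of the list at 0.17 CPM, with 13 counts. All 14 markers of erythroleukaemia cells that were examined had counts there, with a summed level of 4258 to 4671 CPM (counts per 10 to the power of 6 on library sizes scaled by the TMM method, which is used for every level below). Library totals ran from 23755510 to 32805574 counts. The libraries of replicate 3 at 0.25 µM and at 0.5 µM stood apart from the rest on the third principal component of all genes, at 70.1 and 75.4 against -42.5 to 16 for the others, and values without both are given below for the 5 tested genes in the comparisons that use these groups and for any call or count of a list that they change. Low counts were more often even than odd: 62.5% of the counts from 1 to 4 were even, against 49.7% of those from 101 to 1000. Counting both mates of a read pair would give that pattern, and the counting intervals below, which cover counting error only, are then too narrow and the lower bounds of fold changes too high.

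RefSeq promoter sequences on GRCh38.p14 were at hand for 4 of the 9 genes, and they are printed because these genes took different courses across the doses: ITGA2B and THBS1 rose, PPBP was seen at the lower doses only in traces, and GP9 stayed at the edge of detection. Each line gives the 250 bases before the annotated start, 5′ to 3′ on the strand of the gene. Capitals mark matches, on either strand, to short words of factors that act at such promoters: the GATA word AGATAA, also taken with a leading T or a final G, the ETS word AGGAAG, also taken with a leading C, the SP1 word GGGCGG, the AP-1 word TGANTCA (N is any base) and the TATA word TATAAA.
ITGA2B: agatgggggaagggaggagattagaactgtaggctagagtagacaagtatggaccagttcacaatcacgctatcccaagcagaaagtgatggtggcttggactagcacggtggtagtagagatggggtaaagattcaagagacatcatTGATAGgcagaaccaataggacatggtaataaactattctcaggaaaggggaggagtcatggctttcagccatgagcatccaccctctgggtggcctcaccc
GP9: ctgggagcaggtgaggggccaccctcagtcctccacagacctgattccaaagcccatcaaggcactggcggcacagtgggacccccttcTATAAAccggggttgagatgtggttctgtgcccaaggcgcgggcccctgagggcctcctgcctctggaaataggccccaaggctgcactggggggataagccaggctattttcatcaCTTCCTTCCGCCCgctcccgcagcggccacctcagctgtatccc
PPBP: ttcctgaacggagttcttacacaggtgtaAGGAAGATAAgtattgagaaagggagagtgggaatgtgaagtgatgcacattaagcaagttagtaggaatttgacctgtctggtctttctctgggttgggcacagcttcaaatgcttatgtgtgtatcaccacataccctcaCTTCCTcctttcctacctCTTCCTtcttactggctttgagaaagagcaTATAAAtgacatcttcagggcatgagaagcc
THBS1: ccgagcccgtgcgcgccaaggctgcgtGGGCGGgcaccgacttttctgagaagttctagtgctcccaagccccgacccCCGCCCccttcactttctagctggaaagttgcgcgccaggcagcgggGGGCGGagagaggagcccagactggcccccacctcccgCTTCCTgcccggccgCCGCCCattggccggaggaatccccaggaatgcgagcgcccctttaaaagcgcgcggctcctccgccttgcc
The ITGA2B window lies at chr17:44389650-44389899 on the minus strand, has 48.8% G and C, and holds 1 GATA word, which begins 102 bases before the start, and none of the other words. The GP9 window lies at chr3:129060529-129060778 on the plus strand, with 62.8% G and C, a TATA word 161 bases before the start and ETS words 44 and 40 bases before it that run into an SP1 word at 37. The PPBP window lies at chr4:73988191-73988440 on the minus strand, with 43.6% G and C. It holds a TATA word 31 bases before the start, ETS words at 221, 79 and 61, and a GATA word at 217 that overlaps the first of them. The THBS1 window lies at chr15:39580829-39581078 on the plus strand, with 69.6% G and C, SP1 words at 223, 172, 125 and 72 bases before the start, an ETS word at 87 and no GATA or TATA word. Among 35116 promoter windows of the same length, 22.3% held a GATA word, 40.8% an ETS word, 42.6% an SP1 word, 6.57% an AP-1 word and 10.7% a TATA word. No window of the 4 held an AP-1 word. A match describes the letters and not a bound factor.

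Of the 9 genes, 5 passed the filter on low counts and were tested: ITGA2B, ITGB3, GP1BA, THBS1 and VWF. All 5 were called higher than in untreated cells at each of the 4 doses (edgeR's quasi-likelihood test, Benjamini-Hochberg adjusted p under 0.05 over 23711 genes), and none was called lower at any dose, also at an unadjusted p under 0.05 and with DESeq2. ITGB3 and VWF passed the filter only through treated libraries, which favours a call of higher, so the count of 5 is a description. Without both replicate 3 libraries that stood apart, the 5 genes were also called at each dose. The log2 fold changes of ITGA2B, ITGB3, GP1BA, THBS1 and VWF were then 1.42, 5.22, 0.94, 3.31 and 7.00 at 0.25 µM and 2.32, 4.85, 0.95, 3.94 and 6.52 at 0.5 µM. Martinostat changed a large part of the transcriptome. At 0.15 µM 31.9% of all tested genes were called higher and 19.4% lower, and the shares were 37.4% and 24.8% at 0.25 µM, 39.4% and 27.6% at 0.5 µM, and 38.8% and 27.5% at 1 µM. In the test over the 5 groups, which also called the 5 genes, 73.6% of all genes were called. It called 4 of the 5 genes without untreated replicate 3. Over all tested genes the log2 fold change had a median of 0.28, 0.32, 0.34 and 0.32 from the lowest dose to the highest. Of the called genes 62.2%, 60.1%, 58.8% and 58.5% were higher, and with library totals as the only scaling 81.9%, 79.2%, 70.2% and 69.3% were.

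**Figure D1:**
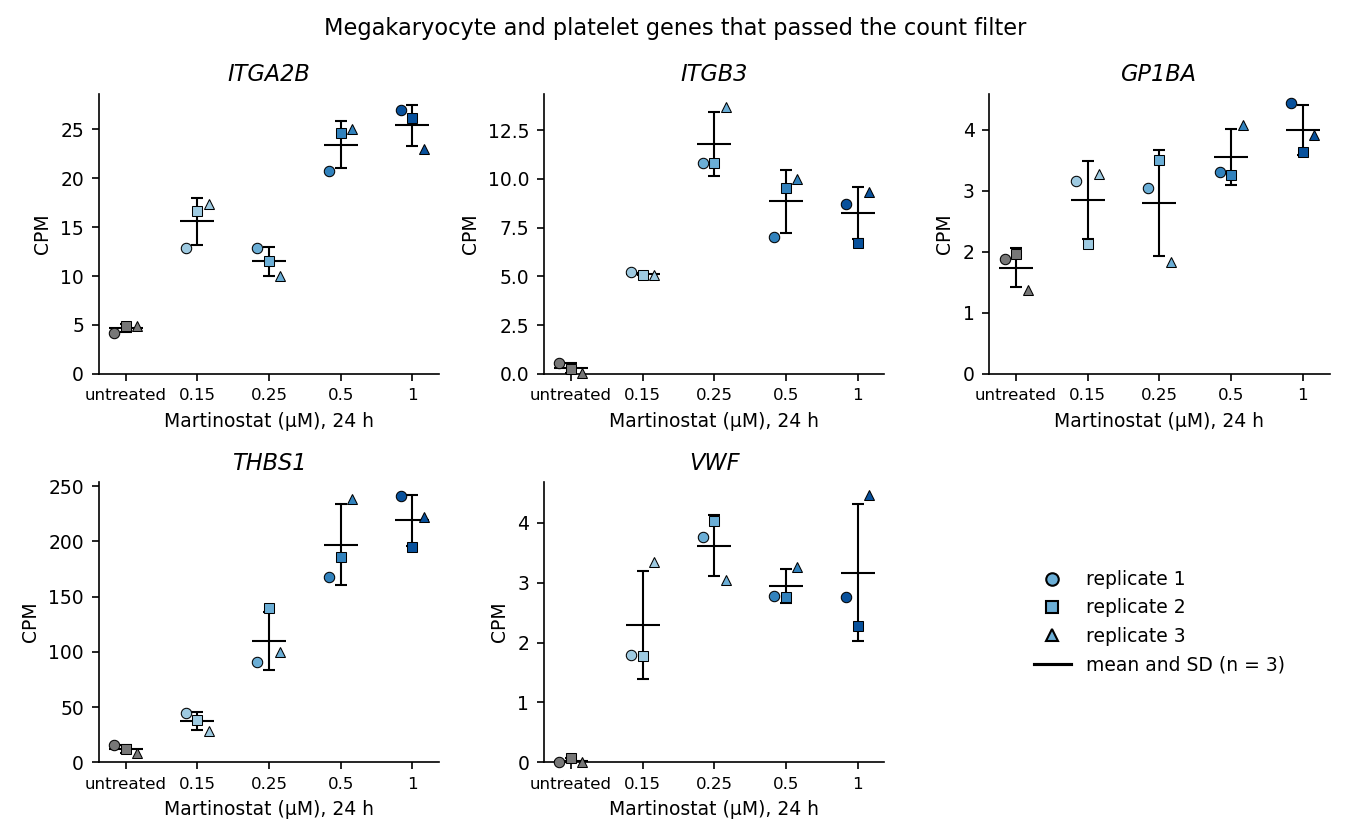
CPM of the 5 tested genes in each library (vertical axes, from 0) by martinostat dose, with symbols for replicate numbers, horizontal bars for group means and error bars for the SD (n = 3). All treated libraries lie above all untreated ones, except for GP1BA at 0.25 µM, where replicate 3 at 1.83 CPM lies within the untreated range.

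ITGA2B (ENSG00000005961.19) lies on the minus strand at chr17:44372180-44389649 of hg38. Its level was 4.17, 4.87 and 4.93 CPM in the untreated libraries, 12.9, 16.6 and 17.4 at 0.15 µM, 12.9, 11.5 and 9.99 at 0.25 µM, 20.7, 24.6 and 25 at 0.5 µM, and 27, 26.2 and 23 at 1 µM. All 12 treated libraries lay above the untreated ones, the libraries of 0.15 and 0.25 µM met at 12.9 CPM, and those of 0.5 and 1 µM overlapped above all others. The log2 fold change against untreated cells was 1.75 ± 0.17 (SE, n = 3 per group) at 0.15 µM and 2.45 ± 0.18 at 1 µM, or 5.45-fold (adjusted p = 1.31e-07 and 5.38e-10). The order of the levels was not that of the doses, since the mean was 15.6 ± 2.42 CPM (SD) at 0.15 µM and 11.5 ± 1.48 at 0.25 µM. That difference, a log2 change of -0.44 ± 0.16, had an unadjusted p of 0.0141 and missed the threshold after adjustment (edgeR adjusted p = 0.0852). From 0.25 to 0.5 µM ITGA2B rose by 1.03 ± 0.16 on the log2 scale (adjusted p = 9.31e-05). Without both replicate 3 libraries these changes were -0.33 (adjusted p = 0.201) and 0.90 (adjusted p = 0.00043).

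ITGB3 (ENSG00000259207.9, plus strand, chr17:47253827-47313743) encodes the partner of αIIb and was close to silent in untreated cells. The untreated libraries held 14, 7 and 1 counts, or 0.573, 0.27 and 0.0391 CPM. The levels were 5.2, 5.08 and 5.09 CPM at 0.15 µM, 10.8, 10.8 and 13.7 at 0.25 µM, 7.02, 9.54 and 9.98 at 0.5 µM, and 8.73, 6.73 and 9.31 at 1 µM. No treated library overlapped the untreated ones, and the libraries of 0.25 µM lay above those of every other dose. In dose order the log2 fold change against untreated cells was 4.12 ± 0.40, 5.32 ± 0.39, 4.91 ± 0.39 and 4.81 ± 0.39, with an edgeR adjusted p of 8.67e-08 or lower. Between 0.15 and 0.25 µM ITGB3 rose by 1.20 ± 0.29 (adjusted p = 0.0118), or by 1.10 without both replicate 3 libraries (adjusted p = 0.00458). The change from 0.25 to 0.5 µM was -0.41 ± 0.29 and was not called (adjusted p = 0.309), and it was -0.37 without those libraries (adjusted p = 0.35). When only the libraries of these doses were fitted with the replicate number as a block, it was -0.43 and was called (adjusted p = 0.0367). Untreated replicate 1 held most of the untreated counts, and without it the log2 fold change at 0.15 µM was 5.00 and at 1 µM 5.69. The values rest on 66.8% of the exon bases, because the exons of a readthrough gene on the same strand, with 0 counts in all 15 libraries, cover the other 33.2%.

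Because both subunits are needed for the receptor, their levels were also compared per kilobase of countable exon. The ratio of ITGA2B to ITGB3 was 5.84, 14.4 and 101 in the untreated libraries, where ITGB3 rested on few counts. It was 1.98 to 2.73 at 0.15 µM, 0.586 to 0.956 at 0.25 µM, 2.01 to 2.36 at 0.5 µM and 1.98 to 3.11 at 1 µM. ITGB3 thus exceeded ITGA2B per kilobase in the 3 libraries of 0.25 µM and in no other library.

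GP1BA (ENSG00000185245.8, plus strand, chr17:4932277-4935023) encodes the subunit that binds von Willebrand factor, and it changed least of the 5. Its level was 1.88, 1.97 and 1.37 CPM in untreated cells, 3.16, 2.12 and 3.27 at 0.15 µM, 3.05, 3.51 and 1.83 at 0.25 µM, 3.31, 3.26 and 4.08 at 0.5 µM, and 4.44, 3.63 and 3.91 at 1 µM. In 11 of 12 treated libraries it lay above the untreated range, and the neighbouring doses overlapped throughout. The log2 fold change was 0.71 ± 0.29 at 0.15 µM and 0.68 ± 0.29 at 0.25 µM, just inside the threshold (adjusted p = 0.0471 and 0.0492), and 1.03 ± 0.29 and 1.19 ± 0.29 at 0.5 and 1 µM (adjusted p = 0.004 and 0.00124). The calls at 0.15 and 0.25 µM were not stable. Leaving out 1 library ended the call at 0.15 µM in 11 of 15 cases, namely for every untreated and every 1 µM library, replicates 1 and 3 of 0.15 µM, replicate 1 of 0.25 µM and replicates 1 and 2 of 0.5 µM, with log2 values from 0.56 to 0.81. At 0.25 µM the call ended in 12 of 15 cases, for the same untreated, 1 µM and 0.5 µM libraries and for replicates 1 and 2 of 0.15 µM and of 0.25 µM, with log2 values from 0.47 to 0.77. Of its exon bases 3.86% lie under CHRNE on the other strand, and whether reads were counted by strand is not given in the sources used here.

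GP9 (ENSG00000169704.5, plus strand, chr3:129060779-129062406), another subunit of the same complex, was under the filter. It had 0 counts in all untreated and all 0.15 µM libraries, 2 counts in replicate 1 of 0.25 µM, 2 in replicate 3 of 0.5 µM and 6 in replicate 2 of 1 µM. A count of 0 allows up to 3 counts, which was 0.116 to 0.123 CPM in the untreated libraries. The 6 counts at 1 µM, all from 1 library, came to at least 1.77-fold the level that 0 counts allow over the untreated group, and the exact two-sided permutation test gave p = 1. If both mates were counted, they are 3 fragments, which is no more than 0 counts allow. The remaining subunits of the complex, looked up after their values were known, were GP1BB, with 0 counts in all libraries, and GP5, with means of 0.053 CPM in untreated cells and, in dose order, 0.209, 0.302, 0.0748 and 0.071 in treated ones.

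**Figure D2:**
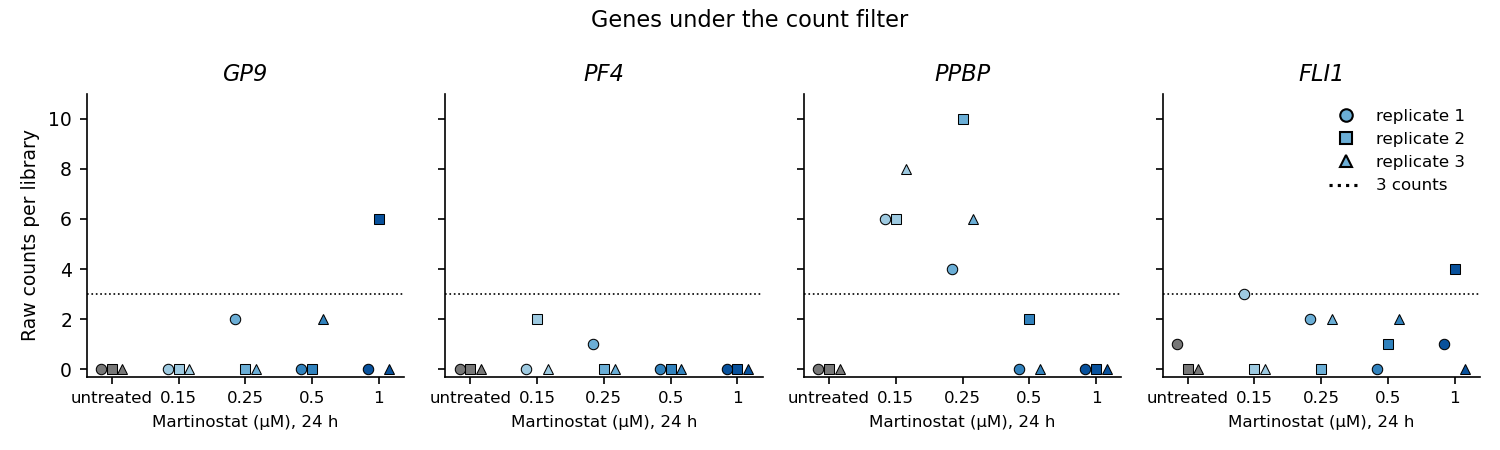
Raw counts per library (vertical axis) of the 4 genes under the count filter, by martinostat dose, with a dotted line at 3 counts, the number that a count of 0 allows. PPBP lies above the line in the 3 libraries of 0.15 µM and the 3 of 0.25 µM and in no other, and no gene exceeds 10 counts.

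THBS1 (ENSG00000137801.11, plus strand, chr15:39581079-39599466) had the largest change between the lowest and the highest dose of the 5 tested genes and the highest level per kilobase in each group. It read 15.3, 11.9 and 8.34 CPM in untreated cells, 44.7, 38.2 and 28.7 at 0.15 µM, 90.4, 140 and 100 at 0.25 µM, 168, 186 and 238 at 0.5 µM, and 241, 195 and 222 at 1 µM. The untreated, 0.15 µM, 0.25 µM and 0.5 µM libraries did not overlap with one another, while those of 0.5 and 1 µM did. Its log2 fold change against untreated cells was 1.66 ± 0.23, 3.22 ± 0.24, 4.06 ± 0.25 and 4.22 ± 0.25 in dose order, or 18.6-fold at 1 µM (adjusted p = 4.29e-11). The steps from 0.15 to 0.25 µM and from 0.25 to 0.5 µM were 1.57 ± 0.22 and 0.84 ± 0.22 (adjusted p = 0.00023 and 0.00587). The later step was not called without the libraries of replicate 3 at both doses, where it was 0.63 (adjusted p = 0.0674), while the earlier one was 1.65 (adjusted p = 0.000182). The exons of FSIP1 and THBS1-AS1 on the other strand cover 7.58% of the THBS1 exon bases, and reads from there cannot be told apart without strand.

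VWF (ENSG00000110799.14, minus strand, chr12:5948877-6124770) went from next to nothing to a low level at the lowest dose and stayed there. The untreated libraries held 0, 2 and 0 counts. The treated libraries read 1.79, 1.77 and 3.34 CPM at 0.15 µM, 3.76, 4.04 and 3.05 at 0.25 µM, 2.78, 2.76 and 3.26 at 0.5 µM, and 2.77, 2.28 and 4.46 at 1 µM. All 12 lay above the untreated libraries, and the 4 doses overlapped. With 2 untreated counts in all, the ratio to untreated cells carried a wide exact counting interval: it was 87.5 (95% interval 23.9 to 728) at 0.15 µM, from 198 counts, and 120 (33 to 998) at 1 µM, from 272 counts. The fit called VWF at every dose (edgeR adjusted p of 1.64e-07 or lower), but its log2 fold change depended on untreated replicate 2, which held both counts: 6.23 at 0.15 µM with it and 9.05 without. No step between doses was called for VWF, and the change from 0.15 to 0.25 µM was 0.65 ± 0.35 (adjusted p = 0.25).

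Markers of other cells that make these proteins moved as well. Of 11 endothelial markers 8 were tested and 6 were called higher at 0.15 µM and at 1 µM, with none lower, beside 31.9% and 38.8% of all tested genes. PECAM1, CDH5, KDR and TIE1 passed the filter only through treated libraries, and of the other 4 tested markers 2 were called higher at both doses. KDR, a receptor of vascular growth factor, had 0.0518 CPM untreated and 16.1 at 1 µM. CDH5, the cadherin that defines endothelium, had 0 untreated counts and was at least 8.26-fold the level that 0 counts allow at 1 µM (4.13-fold if both mates were counted). The defining marker ROBO4 was at 0 in untreated cells and at 0.0933 CPM or less at every dose, and EMCN was at 0 at 1 µM. The summed level of the list was 190 to 256 CPM untreated and 124 to 218 at 1 µM, most of it EGFL7, a secreted vascular protein singled out after its values were seen (186 to 252 and 72.4 to 168 CPM, not called at 1 µM). At 0.5 µM EGFL7 was called lower (log2 fold change -1.07 ± 0.43, edgeR adjusted p = 0.0421). Without both replicate 3 libraries 0 markers of the list were called lower at 0.5 µM. The other 10 markers summed to 3.05 to 4.29 CPM untreated and 49.4 to 57.7 at 1 µM. Of 7 fibroblast markers 5 were tested and 3 were called higher at each of these doses, 1 was called lower at 1 µM, 3 had passed the filter only through treated libraries, and the sum went from 21.9 to 25.7 CPM untreated to 307 to 494 at 1 µM, most of it COL1A1 (4.36 CPM untreated, 398 at 1 µM). COL3A1 and LUM were at 0 in untreated cells and at 0.29 CPM or less at every dose. The list of monocyte and granulocyte markers summed to 15.8 to 18.5 CPM untreated and 38.6 to 50.4 at 1 µM. At 1 µM 6 of its 8 tested genes were called higher and 1 lower. Of the 8 tested, 6 had passed the filter only through treated libraries. S100A8, MPO and ELANE were at 0 in untreated cells. The part of these programmes in the levels of VWF and THBS1 was not tested. In bulk RNA, fewer cells of a kind and less RNA per cell cannot be told apart.

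The chemokine genes of the platelet granule stayed under the filter. PF4 (ENSG00000163737.4, minus strand, chr4:73980811-73982027), platelet factor 4, had 2 counts in replicate 2 of 0.15 µM, 1 count in replicate 1 of 0.25 µM and 0 counts in every other library. PPBP (ENSG00000163736.4, minus strand, chr4:73986439-73988190), pro-platelet basic protein, had 0 counts in the untreated libraries, 6, 6 and 8 at 0.15 µM, 4, 10 and 6 at 0.25 µM, 0, 2 and 0 at 0.5 µM, and 0 in each library of 1 µM. Every library of the lower doses thus exceeded every library of the other groups. Over the group, the 20 counts at 0.15 µM came to at least 5.89-fold, and the 20 counts at 0.25 µM to at least 5.2-fold, the level that 0 untreated counts allow. Every count of PPBP above 0 was even, and if both mates were counted these bounds fall to 2.95-fold and 2.6-fold. The exact two-sided permutation test gave p = 0.1 at both doses, the smallest value that 3 against 3 libraries allow, and 0.8 after Benjamini-Hochberg adjustment over the 16 tests of the low genes. In the 1 µM libraries a level of up to 0.104 to 0.106 CPM was not detectable at this depth.

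PF4 and PPBP belong to a cluster of CXC chemokine genes on chromosome 4, which was quiet as a whole. Of its 9 genes 4 had enough counts to be tested, and none was called at 0.15 or 0.25 µM in either direction by edgeR. CXCL1 and CXCL2 passed the filter only through treated libraries. At 1 µM CXCL2 rose from 0.13 to 0.467 CPM (log2 fold change 1.80 ± 0.72, adjusted p = 0.0353), and CXCL8 fell from 2.73 to 0.782 CPM (-1.80 ± 0.33, adjusted p = 8.85e-05). CXCL1 and CXCL3 were tested and not called. CXCL6 and CXCL5 had means of 0.0465 CPM or less in every group, and PF4V1 had 0 counts throughout.

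FLI1 (ENSG00000151702.17, plus strand, chr11:128686535-128813267) was at the edge of detection in every group. The counts were 1, 0 and 0 in untreated cells, 3, 0 and 0 at 0.15 µM, 2, 0 and 2 at 0.25 µM, 0, 1 and 2 at 0.5 µM, and 1, 4 and 0 at 1 µM. All groups overlapped, and the exact permutation p ranged from 0.4 to 1 over the doses. The 5 counts at 1 µM against 1 in untreated cells gave a ratio of 4.42 with an exact 95% counting interval of 0.495 to 209, so a difference was not detectable at this depth. The exons of SENCR and ENSG00000245008 on the other strand cover 4.1% of its exon bases.

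**Figure D3:**
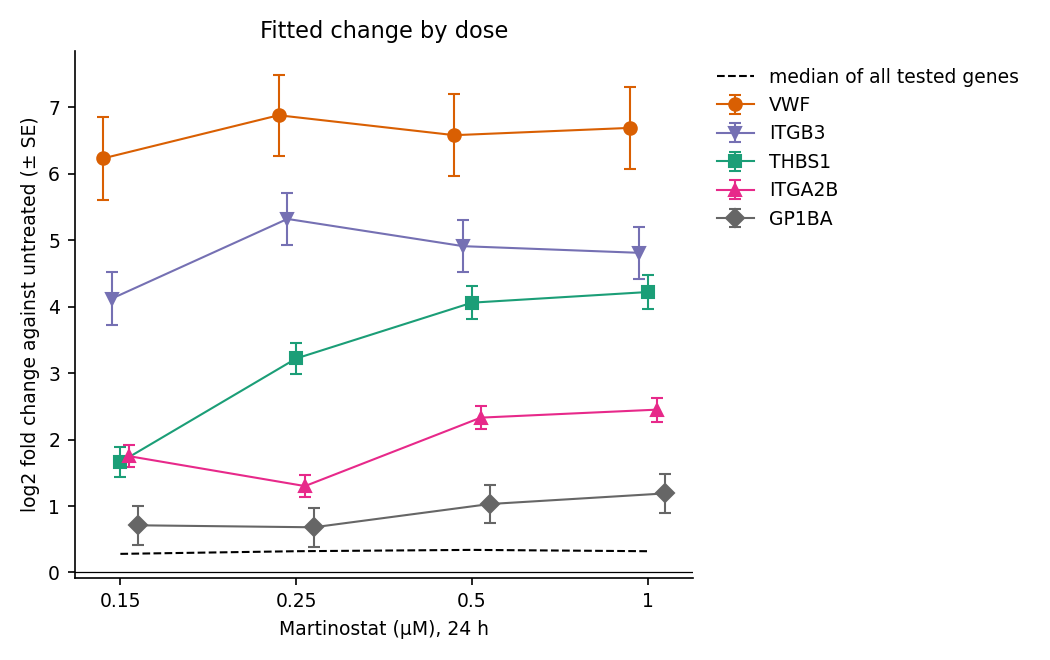
Fitted log2 fold change against untreated cells (vertical axis, error bars ± SE from 3 libraries per group) of the 5 tested genes at each martinostat dose, with the median of all tested genes as a dashed line between 0.28 and 0.34. THBS1 climbs from 1.66 to 4.06 between 0.15 and 0.5 µM, ITGA2B dips to 1.30 at 0.25 µM, and VWF and ITGB3 are near their highest value from 0.25 µM on.

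The doses were also compared with each other, to see where these genes kept changing. From 0.15 to 0.25 µM, ITGB3 and THBS1 were called higher, where 4.96% of all tested genes were called higher and 7.32% lower. ITGA2B and THBS1 were called higher from 0.25 to 0.5 µM, against 14.4% of all genes higher and 16% lower. Between 0.5 and 1 µM edgeR and DESeq2 called no gene of the table (0%), 372 genes had an unadjusted p under 0.05 in edgeR, and none of the 5 genes was among them. Across the whole range of doses, from 0.15 to 1 µM, THBS1 rose by 2.56 ± 0.23 and ITGA2B by 0.70 ± 0.16 on the log2 scale (adjusted p = 4.76e-08 and 0.00174), beside 21.5% of all genes higher and 23.1% lower. The change of ITGB3 over that range, 0.69 ± 0.29, missed the threshold (edgeR adjusted p = 0.0643), and it was called under 11 of 25 alternative settings. VWF (0.46 ± 0.35) and GP1BA (0.48 ± 0.28) were not called.

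Per kilobase of countable exon, the order of the tested genes changed with treatment. In untreated cells THBS1 stood first at 1.4 ± 0.409 CPM per kilobase (SD, n = 3). ITGA2B at 0.818 ± 0.074 and GP1BA at 0.72 ± 0.134 came next and overlapped with each other. ITGB3 at 0.0644 ± 0.0586 and VWF at 0.00248 ± 0.00429 followed. At 1 µM THBS1 stood at 25.9 ± 2.73, ITGA2B at 4.46 ± 0.368, ITGB3 at 1.81 ± 0.296 and GP1BA at 1.65 ± 0.17, and the last pair overlapped. VWF, at 0.305 ± 0.11, was below these in every library, and GP9 and FLI1 were lower still at 0.0788 ± 0.136 and 0.00752 ± 0.00932. PF4 and PPBP had no counts at this dose. The FPKM values of the authors gave smaller numbers, such as 0.0184 ± 0.00673 for VWF at 1 µM, because they are divided by the genomic span, 175894 bases for VWF, and not by the 10387 exon bases.

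**Figure D4:**
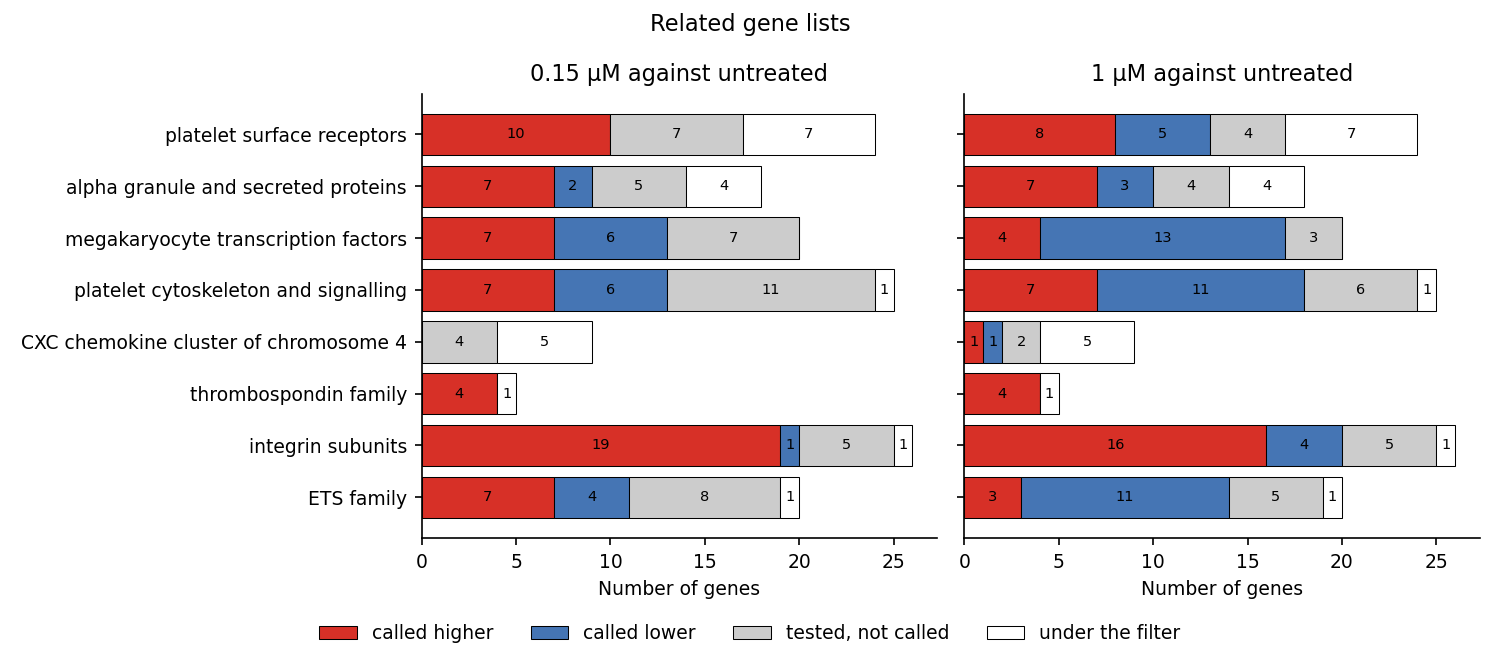
Number of genes (horizontal axes, from 0) called higher, called lower, tested without a call, or under the count filter in 8 related gene lists, at 0.15 µM and at 1 µM against untreated cells. Integrin subunits have 19 and 16 genes called higher, and 12 of the 25 tested subunits passed the filter only through treated libraries. Megakaryocyte transcription factors go from 6 to 13 genes called lower.

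Genes of the same pathways were examined in lists to set the 9 genes in context. The counts of each list stand against all tested genes, of which 31.9% were called higher and 19.4% lower at 0.15 µM and 38.8% and 27.5% at 1 µM. For a gene that passed the filter only through treated libraries, the filter favours a call of higher over a call of lower. The number of such genes is given for each list. Of 24 platelet surface receptors 17 were tested, and 10 (58.8%) were called higher and 0 lower at 0.15 µM. At 1 µM 8 (47.1%) were higher and 5 (29.4%) lower, close to the shares of all genes. Of the 17, 7 passed only through treated libraries, and of the other 10 there were 4 higher and 0 lower at 0.15 µM and 3 higher and 4 lower at 1 µM. Without both replicate 3 libraries the list had 11 higher and 1 lower at 0.15 µM and 9 and 5 at 1 µM. The median log2 fold change was 0.82 at 0.15 µM and 0.29 at 1 µM, beside 0.28 and 0.32 for all tested genes. ITGA6, a laminin receptor subunit, rose from 0.338 to 6.24 CPM at 1 µM (log2 fold change 4.18 ± 0.40), and ITGA2, a collagen receptor subunit, from 0.119 to 1.9 (3.95 ± 0.63). Both are among the 7 that passed only through treated libraries. P2RX1, singled out after its values were seen, is also among the 7 and was called lower at 1 µM (-2.17 ± 0.80, edgeR adjusted p = 0.0228). CD36, a scavenger receptor, fell from 227 to 9.34 CPM (-4.60 ± 0.80), and F2RL3, a thrombin receptor, from 11.9 to 0.989 (-3.59 ± 0.29).

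Alpha granule and secreted proteins, 14 of 18 tested, had 7 genes (50%) called higher and 2 (14.3%) lower at 0.15 µM and 7 (50%) higher and 3 (21.4%) lower at 1 µM, shares close to those of all genes at 1 µM. The medians were 1.08 and 0.80, beside 0.28 and 0.32 for all genes, and 2 of the 14 passed the filter only through treated libraries. Without both replicate 3 libraries there were 8 higher and 2 lower at 0.15 µM and 8 and 3 at 1 µM. CLU, the secreted chaperone clusterin, went from 2.27 CPM untreated to 192 at 0.15 µM and 674 at 1 µM (log2 fold change at 1 µM 8.22 ± 0.33). CCL5, a chemokine, was 1 of the 2 that passed only through treated libraries. It had 0 untreated counts and was called higher at 1 µM. Its level was at least 9.14-fold the level that 0 counts allow, or 4.57-fold if both mates were counted. SRGN, the granule proteoglycan serglycin, fell from 14.3 to 1.65 CPM (-3.10 ± 0.26), and SPARC from 261 to 141 (-0.88 ± 0.16).

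The family of THBS1 was followed too. Of the 5 thrombospondin genes 4 were tested, and all 4 were called higher at all doses. COMP and THBS4 passed the filter only through treated libraries, which favours a call of higher, so the count rests on THBS1 and THBS3. COMP went from 0.0518 CPM untreated, with 4 counts, to 9.5 at 1 µM (log2 fold change 7.38 ± 0.42), THBS3 from 2.41 to 9.89 (2.03 ± 0.32), and THBS4, with 0 untreated counts, reached at least 12.4-fold the level that 0 counts allow, or 6.19-fold if both mates were counted. THBS2 had means of 0.106 CPM or less.

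Of 26 integrin subunits, ITGA2B and ITGB3 included, 25 were tested, and 19 (76%) were called higher and 1 (4%) lower at 0.15 µM, against 16 (64%) higher and 4 (16%) lower at 1 µM. ITGB3 was 1 of 12 subunits that passed the filter only through treated libraries. Of the other 13 there were 9 higher and 1 lower at 0.15 µM and 5 higher and 4 lower at 1 µM. ITGA3 went from 0.554 to 45 CPM (6.33 ± 0.24) and ITGAX, from among the 12, from 0.156 to 10.3 (5.99 ± 0.41) at 1 µM. ITGB5 fell from 26.9 to 11.1 CPM (-1.28 ± 0.14) and ITGAE from 19.6 to 8.6 (-1.19 ± 0.18).

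**Figure D5:**
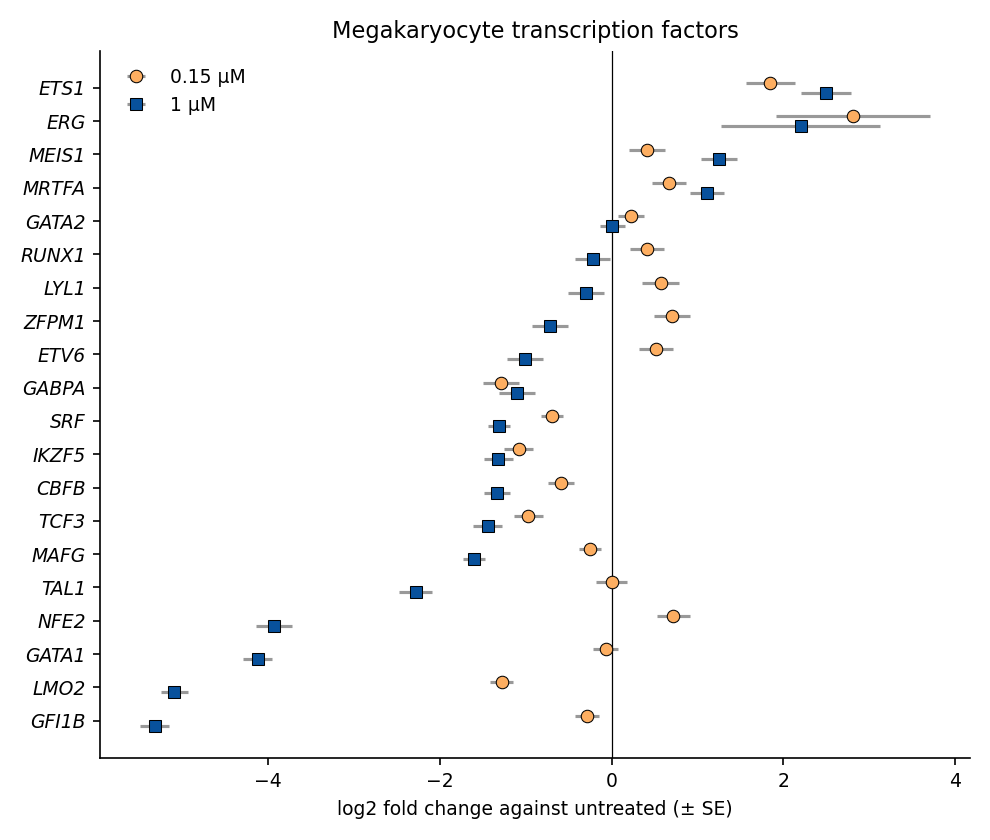
Log2 fold change against untreated cells (horizontal axis, error bars ± SE from 3 libraries per group) of 20 megakaryocyte transcription factors at 0.15 µM (circles) and 1 µM (squares), ordered by the value at 1 µM. GFI1B and LMO2 lie below -5 at 1 µM and at -0.29 and -1.28 at 0.15 µM, and ETS1 and ERG lie above 2 at 1 µM.

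Most transcription factors of the lineage were called lower at the highest dose. All 20 were tested. At 0.15 µM 7 were called higher and 6 lower, and at 1 µM 4 were higher and 13 lower, with medians of 0.12 and -1.21. ERG alone had passed the filter only through treated libraries. Without both replicate 3 libraries the counts were 8 and 7 at 0.15 µM and 4 and 13 at 1 µM. With library totals only they were 10 and 5 at 0.15 µM and 5 and 12 at 1 µM. GFI1B, a repressor needed for red cells and platelets, had 147 CPM untreated, 121 at 0.15 µM and 3.68 at 1 µM (log2 fold change at 1 µM -5.32 ± 0.17). LMO2, a bridging factor of GATA and TAL complexes, had 168, 69.6 and 4.93 CPM (-5.09 ± 0.16). ETS1 rose from 1.34 to 7.61 CPM (2.50 ± 0.29), and ERG, the closest relative of FLI1, from 0.0526 to 0.258, with 4 untreated counts (adjusted p = 0.0438). GATA1 and NFE2, singled out after their values were seen, fell at 1 µM by 4.12 ± 0.17 and by 3.93 ± 0.21 on the log2 scale. At 0.15 µM GATA1 was not called (-0.07, 328 CPM untreated and 313 treated), and NFE2 was called higher (0.72). The part of these factors in the levels of the platelet genes was not tested.

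The ETS family, with FLI1 among its 20 genes, had 19 tested genes. ERG alone of these had passed the filter only through treated libraries. At 0.15 µM 7 were called higher and 4 lower, and at 1 µM 3 higher and 11 lower, with medians of 0.21 and -0.48. ETS1 and ERG were the highest, as above, and ETV4 (67.2 to 18.2 CPM, -1.88 ± 0.22) and ELF4 (146 to 42 CPM, -1.80 ± 0.18) fell most at 1 µM. With library totals only the counts were 9 higher and 1 lower at 0.15 µM and 4 and 6 at 1 µM. The median of all genes was then 0.64 and 0.67 in place of 0.28 and 0.32. Without both replicate 3 libraries the counts were 8 and 5 at 0.15 µM and 4 and 11 at 1 µM.

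Platelet cytoskeleton and signalling genes, 24 of 25 tested, gave 7 called higher and 6 lower at 0.15 µM and 7 higher and 11 lower at 1 µM. With library totals only there were 11 higher and 1 lower at 0.15 µM and 9 and 9 at 1 µM. The median at 1 µM was -0.17 with TMM, beside 0.32 for all genes, and 0.18 with library totals only, beside 0.67, so that its sign turned with the scaling while its distance from all genes was -0.49 with TMM. Of the 24, 2 passed only through treated libraries, and without both replicate 3 libraries the counts at 0.15 µM were 7 and 7. MYL9, a myosin light chain, rose from 6.16 to 40.9 CPM (2.73 ± 0.29), and PLCG2, a phospholipase downstream of collagen receptors, from 7.71 to 47.1 (2.61 ± 0.18). SYK, the kinase upstream of it, fell from 22.9 to 1.34 CPM (-4.09 ± 0.28), and TUBB1, the tubulin of platelet microtubules, from 2.23 to 0.151 (-3.84 ± 0.69).

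Most erythroid markers of the line were called lower at the highest dose. Of the 14 markers of erythroleukaemia cells 0 were called higher and 4 (28.6%) lower at 0.15 µM, against 19.4% of all tested genes. At 1 µM 1 was called higher and 11 (78.6%) lower, against 27.5% of all tested genes. The median log2 fold change was -0.32 at 0.15 µM and lowest at 0.5 µM, at -2.14. At 1 µM its distance from the median of all tested genes was -2.32. With library totals only, 3 were higher and 4 lower at 0.15 µM, and 1 was higher and 9 lower at 1 µM. The medians were then 0.05 and -1.65, so the sign at 0.15 µM turned with the scaling. Without both replicate 3 libraries 2 were higher and 5 lower at 0.15 µM, 0 were higher and 11 lower at 1 µM, and the median at 0.5 µM was -2.04. KLF1, the erythroid regulator, fell from 406 to 3.58 CPM at 1 µM (log2 fold change -6.83 ± 0.26). HBE1, an embryonic globin, was the gene called higher, just inside the threshold (0.17 to 0.491 CPM, adjusted p = 0.049), and it was not called without those libraries. HBE1 alone of the 14 had passed the filter only through treated libraries. The sum of the list ranged from 1079 to 1201 CPM at 1 µM. GATA1, TAL1 and LMO2, all called lower at 1 µM, are also in the list of megakaryocyte transcription factors, so the counts of these lists are not separate results.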

How the data were processed

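Poly(A) RNA of 15 K-562 libraries was sequenced as paired ends by the authors, who trimmed the reads, aligned them to hg38 with HISAT2 2.2.1 and counted GENCODE genes with featureCounts 1.5.3. The strand and mate settings are not given in the sources used here. The deposited table holds raw counts per gene, and the deposited FPKM files, 1 per library, hold counts scaled to depth and length, and the counts show that this length is the genomic span. There were 0 sample columns left unused.

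Counts were filtered (filterByExpr), scaled by TMM and fitted in edgeR 4.0.16 (R 4.3.3) over all 15 libraries with the group as the only term. The robust quasi-likelihood F test was used with Benjamini-Hochberg adjustment over 23711 genes, and a gene was called at an adjusted p under 0.05. Genes under the filter got exact permutation tests and exact (Clopper-Pearson) counting intervals. The code was tested on simulated counts. No pair of replicates agreed within sampling noise (chi-square per degree of freedom 6.51 or higher).

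Same-numbered libraries of 0.25 and 0.5 µM deviated together from their group means (r 0.266 to 0.579), a hint from the values and not from the labels. Replicate 3 had the 0.579. Replicates 1 and 2 had 0.266 and 0.268, little above the 0.236 of replicate 2 of 0.25 µM with replicate 1 of 0.5 µM, so their pairing is not shown. In other pairs of groups the same-number r was 0.0918 or lower. The blocked fit of 0.25 and 0.5 µM is therefore given where it changed a call.

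Positions come from the annotation at hand (GENCODE, hg38), where 5 of the 9 identifiers had the version of the deposited table, and only exon bases free of other counted genes were used for lengths. The genes and lists were chosen with earlier results of these data known. All 9 genes are described. In each list the 2 highest and the 2 lowest called log2 fold changes at 1 µM are named (any gene in lists of 9 or fewer), as are, per gene, the 3 most similar genes and the nearest coding neighbours; 1 gene that this rule names is not reported here. The alternatives were RLE size factors, library totals, TMM from genes of at least 10 CPM, no filter, at least 10 counts in every library, DESeq2 1.42.0, limma 3.58.1 on log2(FPKM + 1), only the libraries compared, the replicate block, and 1 library left out. Added after the data were seen were halved counts, both replicate 3 libraries left out, and the block within 0.25 and 0.5 µM.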

Additional observations from a re-analysis of the deposited data

How the results depend on the processing

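Against untreated cells, ITGA2B, ITGB3, THBS1 and VWF were called higher at all doses under every alternative that gave a value, and the number of genes called higher stayed at 5 or fell to 4 when 1 library was left out at 0.15 and 0.25 µM (range 4 to 5) and was 5 at 0.5 and 1 µM. With at least 10 counts required in every library, ITGB3 and VWF were not tested, so that 3 genes were called higher at each dose, 1 in place of 2 from 0.15 to 0.25 µM, and 3 in the test over the groups, where 6 were called with no filter and 4 to 5 when 1 library was left out. From 0.25 to 0.5 µM 1 gene in place of 2 was called higher without both replicate 3 libraries, and 1 in place of 0 was called lower (ITGB3) with the replicate block fitted to these doses alone. With no filter 1 gene in place of 0 was called lower from 0.15 to 1 µM, namely PPBP, and PPBP took the place of GP1BA among the 5 called higher at 0.15 and at 0.25 µM. The cause was not tested.

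The replicate block over all groups, whose other numbers pair nothing, ended the GP1BA calls at 0.15 µM (0.72, adjusted p = 0.0555) and at 0.25 µM (0.67, adjusted p = 0.0599) and no other call. RLE factors (0.66) and no filter (0.72) ended the GP1BA call at 0.15 µM too, and no filter (0.67) and a fit of only the libraries compared (0.74) ended it at 0.25 µM. The range of adjusted p for GP1BA over all alternatives was 0.00678 to 0.169 at 0.15 µM and 0.00247 to 0.211 at 0.25 µM.

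Signs turned only for changes that were not called. GP1BA from 0.15 to 0.25 µM, -0.04 as reported, was 0.05 with RLE and with DESeq2, 0.11 with library totals and with TMM from genes of at least 10 CPM, 0.07 with at least 10 counts in every library, 0.01 with only the libraries compared, 0.06 with limma, 0.22 without both replicate 3 libraries, and between -0.24 and 0.22 when 1 library was left out, 0.04 and 0.11 without replicates 1 and 3 of 0.15 µM. From 0.5 to 1 µM ITGB3 was 0.03 without replicate 2 of 1 µM and 0.00 without both replicate 3 libraries, and VWF was between -0.22 (without replicate 3 of 1 µM) and 0.30 (without replicate 2 of 1 µM).

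Scaling moved all genes together. With library totals only, the median of all tested genes was 0.64, 0.85, 0.72 and 0.67 in dose order, and 81.9%, 79.2%, 70.2% and 69.3% of the called genes were higher, against 62.2%, 60.1%, 58.8% and 58.5% with TMM and 75.8%, 75.3%, 71.1% and 70.1% with TMM from genes of at least 10 CPM. Relative to that median GP1BA was 0.43 with TMM and 0.42 with library totals at 0.15 µM, and 0.88 with both at 1 µM. On log2(FPKM + 1) the pseudocount swamps low genes: VWF changed by 0.02 to 0.03.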

Other observations

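Some genes followed the same course over the 15 libraries. Pearson r of log2 CPM was ranked over the 16356 genes whose mean reached 1 CPM. THBS1 was closest to PDP1 (0.994), CFAP57 (0.993) and RGL1 (0.988). PDP1, a phosphatase that switches on pyruvate dehydrogenase, had means of 4.07, 8.15, 17.6, 27.8 and 27.8 CPM from untreated to 1 µM. VWF was closest to ST14 (0.995), C1orf115 (0.991) and SLCO3A1 (0.991), and the protease gene ST14 had 0.0257 CPM untreated and 3.8 to 5.03 in the treated groups. ITGB3 was closest to MFSD4A (0.99), AUTS2 (0.986) and HMCN2 (0.984). MFSD4A peaked at 0.25 µM as ITGB3 did, at 7.51 CPM against 0.542 untreated and 5.73 at 1 µM. ITGA2B was closest to SCARF2 (0.976), NLGN2 (0.975) and GRIN2C (0.975), and SCARF2 shared its dip, with 28.8 CPM at 0.15 µM, 20.1 at 0.25 µM and 42.9 at 1 µM. GP1BA was closest to the pseudogene H2AC9P (0.929), the antisense gene CBR3-AS1 (0.91) and HECA (0.904). Counts of H2AC9P and CBR3-AS1 are uncertain, because reads can be split between near copies or between strands. Among the 5 tested genes themselves r ran from 0.74 (GP1BA with ITGB3) to 0.958 (ITGB3 with VWF). All these values come from the same libraries, with the same scaling, and carry no test.

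The nearest coding neighbours, taken only from genes that do not overlap the gene itself, did not share one course. CD9, a tetraspanin gene 74.9 kb from VWF, rose from 19.3 to 68.1 CPM at 1 µM (log2 fold change 1.82 ± 0.13), while ANO2 on the other side held 41 counts in all libraries. FAM171A2, 8.33 kb from ITGA2B, rose from 13.5 to 72.3 CPM at 1 µM (2.42 ± 0.27), and GPATCH8, 5.63 kb away on the other side, was not called at 1 µM (112 CPM untreated, 114 treated). MYL4, 30.1 kb from ITGB3, fell from 131 to 23.4 CPM (-2.48 ± 0.44), and EFCAB13 on the other side rose from 2.65 to 4.77 (0.85 ± 0.33). EFCC1, 20 kb from the near-silent GP9, had 0.0783 CPM untreated and 1.99 to 2.88 in the treated groups, and RAB43 on the other side rose from 0.734 to 2.13 (1.53 ± 0.36). ETS1, the next coding gene on one side of FLI1 at a distance of 99 kb, rose at all 4 doses, while FLI1 stayed at 0 to 4 counts. KCNJ1, closer at 23 kb on the other side, held 4 counts in all libraries. SLC25A11, 2.11 kb from GP1BA, had 98 CPM untreated and 93.7 at 1 µM and was not called at any dose. RASGRP1, 1020 kb from THBS1, fell from 8.41 to 3.53 CPM (-1.25 ± 0.28), and GPR176, 200 kb away on the other side, held 9 counts in all libraries.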
